A study of Homo sapiens with 24 samples.

Results

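The histone mark of active promoters, H3K4me3, was set against the mark of enhancers, H3K4me1, in unperturbed heart muscle cells. The cells were ventricular-like cardiomyocytes, taken at day 15 after the human embryonic stem cell line H9 had been put through a ventricular cardiomyocyte differentiation kit. The comparison used the control libraries alone, 3 for each mark, which are 6 of the 24 libraries of the study, all from this single line. The study's other libraries measured H3K27ac and H3K9me3, and all 4 marks after knockdown of the zinc finger gene ZNF436; the 6 knockdown libraries of H3K4me3 and H3K4me1 serve here as a repeat. The labels do not say what the control cells received or how the knockdown was made. Every library was made by CUT&Tag, in which an antibody brings a transposase to the mark so that the DNA there is cut and tagged, from a sample of H9-derived cells of the same day.

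Reads were counted in 153244 regions of the hg19 genome, the same list for every library. The control H3K4me3 libraries held between 11936924 and 13933927 counts and the control H3K4me1 libraries between 3995760 and 4635493. Values are given as CPM, the counts of a region scaled to the library's own total, so a log2 ratio of 0 means that a region took the same share of the H3K4me3 and of the H3K4me1 libraries. The marks were read with different antibodies, so a ratio compares shares of libraries and not numbers of modified nucleosomes, and mark and antibody cannot be told apart. With H3K4me3 thinned to the depth of H3K4me1, 99.9% of the calls described below that could still be tested were kept in the same direction. Nothing in the labels ties the replicates to separate cultures, and the spread behind each p-value may therefore be technical.

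At a promoter, H3K4me3 is laid down by SET1 and MLL complexes around the start of transcription, often over CpG-rich sequence, and it is recognised by parts of the transcription machinery. H3K4me1 is deposited mainly by MLL3 and MLL4 at enhancers and at the edges of active promoters, and is low where H3K4me3 is highest. H3K27ac marks active promoters and active enhancers alike, and H3K9me3 marks silenced chromatin. In heart muscle cells, enhancers around sarcomere, ion channel and transcription factor genes carry much of the cell type's own regulation.

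The regions at the starts of housekeeping genes and of heart genes held different mixtures of both marks, and the promoter sequences of 5 of these genes are shown because they cover that range. Each window runs from 250 bases before to 50 bases after the gene's start, 5′ to 3′ on the gene's strand, as given by RefSeq for GRCh38.p14, with every CpG in capitals. TBP encodes the TATA-binding protein, HEY2 a ventricular transcription factor, MYH6 the alpha myosin heavy chain, MYL7 the atrial myosin light chain and KCNH2 a repolarising potassium channel. The first pair had H3K4me3-dominant start regions, MYH6 had both marks at similar shares, and the last pair had more H3K4me1.
TBP: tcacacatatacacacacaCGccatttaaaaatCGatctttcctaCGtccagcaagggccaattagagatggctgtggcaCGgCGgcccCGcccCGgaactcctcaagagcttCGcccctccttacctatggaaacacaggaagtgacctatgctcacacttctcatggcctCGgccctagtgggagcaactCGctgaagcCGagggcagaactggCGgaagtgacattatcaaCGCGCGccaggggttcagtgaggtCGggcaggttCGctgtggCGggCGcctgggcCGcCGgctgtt
HEY2: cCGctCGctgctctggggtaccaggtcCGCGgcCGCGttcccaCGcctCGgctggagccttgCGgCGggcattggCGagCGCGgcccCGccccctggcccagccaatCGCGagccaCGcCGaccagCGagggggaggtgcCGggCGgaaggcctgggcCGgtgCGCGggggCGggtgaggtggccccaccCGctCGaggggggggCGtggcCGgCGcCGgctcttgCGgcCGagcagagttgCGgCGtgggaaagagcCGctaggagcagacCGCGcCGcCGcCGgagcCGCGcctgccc
MYH6: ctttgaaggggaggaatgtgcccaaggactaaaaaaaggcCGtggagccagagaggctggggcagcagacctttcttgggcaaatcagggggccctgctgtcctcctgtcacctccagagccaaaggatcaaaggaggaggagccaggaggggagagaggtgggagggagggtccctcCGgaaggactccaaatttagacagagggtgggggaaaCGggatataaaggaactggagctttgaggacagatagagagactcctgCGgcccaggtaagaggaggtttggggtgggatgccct
MYL7: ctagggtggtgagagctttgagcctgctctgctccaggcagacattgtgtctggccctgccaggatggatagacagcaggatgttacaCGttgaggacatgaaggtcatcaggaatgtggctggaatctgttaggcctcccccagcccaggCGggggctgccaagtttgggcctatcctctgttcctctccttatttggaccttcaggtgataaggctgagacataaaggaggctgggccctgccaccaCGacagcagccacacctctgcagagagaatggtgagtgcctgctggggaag
KCNH2: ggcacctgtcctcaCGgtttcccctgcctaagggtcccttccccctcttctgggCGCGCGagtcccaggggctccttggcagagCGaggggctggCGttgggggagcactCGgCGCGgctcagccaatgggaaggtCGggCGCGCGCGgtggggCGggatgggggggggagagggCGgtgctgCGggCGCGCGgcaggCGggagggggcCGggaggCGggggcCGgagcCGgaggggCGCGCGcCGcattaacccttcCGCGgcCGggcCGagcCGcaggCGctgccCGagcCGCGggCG

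These windows hold 21 CpGs for TBP, 43 for HEY2, 4 for MYH6, 3 for MYL7 and 39 for KCNH2, where the median of all 35116 windows is 14. The MYH6 window also holds the letters TATAAA on the gene's strand, as do 7.33% of all windows. KCNH2 shows that a CpG-rich window and an H3K4me1-rich start region occurred together.

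Most regions belonged clearly to one mark. Of 83525 regions with enough counts for a test 80604 were called (96.5%), where 13605 had a higher share of H3K4me3 (16.3%) and 66999 a higher share of H3K4me1 (80.2%), with edgeR's quasi-likelihood test at an adjusted p under 0.05. The log2 ratios of H3K4me3 over H3K4me1 formed a broad peak around -4.74, the median, and a smaller one between 3 and 4. Between -1 and 0 lay 1203 regions, against 17797 between -6 and -5 and 4585 between 3 and 4. Where a region was called and its ratio was at least 1 log2 from 0 it is termed H3K4me3-dominant, with 13160 regions (15.8%), or H3K4me1-dominant, with 66809 (80%). The other 3556 tested regions are termed balanced, and 69719 regions were not tested. Without any test, all 3 H3K4me3 libraries lay above all 3 H3K4me1 libraries in 16.7% of tested regions and below them in 80.4%.

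The zero of this scale depends on the scaling. TMM scaling, which assumes that most regions are unchanged, moved the ratios of tested regions by a median of 3.54, and RLE scaling moved them by 2.90. The H3K4me3 side made up 16.9% of calls on library totals, 38.8% with TMM and 28.2% with RLE. Scaling factors act on whole libraries, so results are also given as percentiles among all tested ratios.

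**Figure D1:**
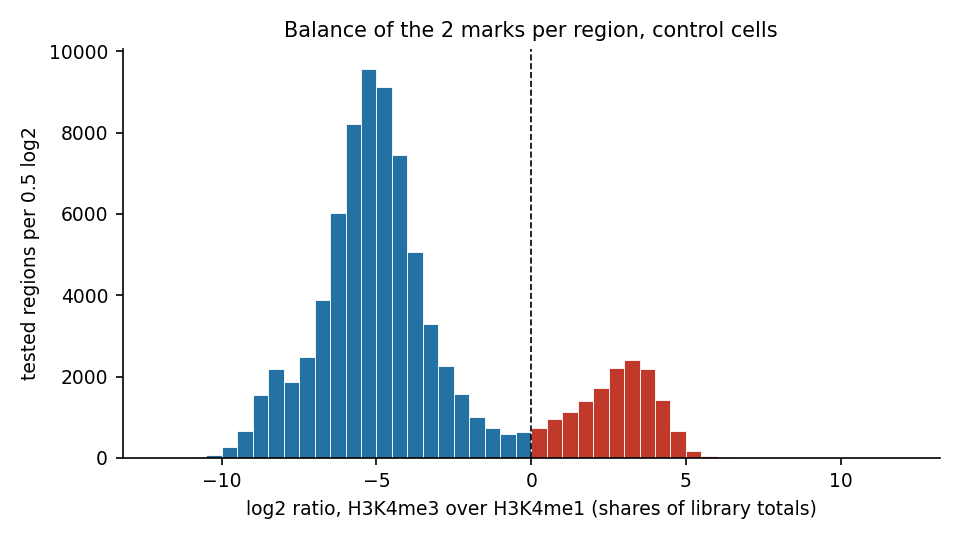
Number of tested regions (y axis) by log2 ratio of H3K4me3 over H3K4me1 in control cells (x axis, bins of 0.5), blue below and red above 0, on library totals. The ratios fall into a large group with a median of all regions at -4.74 and a smaller one between 3 and 4, with few regions around 0.

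The H3K4me3-dominant regions were few and held most of that mark. They took 89.4% ± 0.197 (SD, n = 3) of H3K4me3 counts and 11.6% ± 0.155 of H3K4me1 counts. H3K4me1-dominant regions took 78.6% ± 0.450 of H3K4me1 counts and 3.72% ± 0.0947 of H3K4me3 counts. These shares follow from how the classes were made and are a description. H3K4me3 was also the more concentrated mark without any classes. The regions with the most counts reached 50% of a library in 3910, 3807 and 3814 regions for H3K4me3 replicates 1 to 3. For H3K4me1 it took 14511, 14275 and 15177 regions, with no overlap between the marks.

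Width separated the marks. The sources used here do not state how the regions were made, so a width is that of the region as listed. The median width was 2445 bp for H3K4me3-dominant, 1384 bp for balanced, 865 bp for H3K4me1-dominant and 407 bp for untested regions. Regions of 2000 bp to under 4000 bp held 59.8%, 59.9% and 59.5% of the H3K4me3 libraries and 27.1%, 27% and 26.4% of the H3K4me1 libraries. In regions under 1000 bp the order was the opposite: those from 500 bp held 1.44% ± 0.0220 of H3K4me3 and 20.9% ± 0.186 of H3K4me1 (SD, n = 3). In all 5 width bins the libraries of one mark lay wholly above those of the other, with a two-sided exact permutation p of 0.1, the smallest that 3 against 3 can give, and 0.1 after adjustment over the 10 width and spacing bins.

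The widest regions were more mixed than those of the middle widths. H3K4me3-dominant regions made up 14.5% of tested regions from 1000 to under 2000 bp, 53.4% of those from 2000 to under 4000 bp and 43.2% of those of 4000 bp or more. Balanced regions made up 15.3% of the widest and 4.91% of the bin before. A wide region can span a promoter and the enhancers beside it, and 1 count per region does not separate them.

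Isolated regions held a larger share of H3K4me3 than of H3K4me1, although most of them were still H3K4me1-dominant. Regions within 1 kb of their nearest neighbour held 25.5% ± 0.0887 of H3K4me3 counts and 42.8% ± 0.657 of H3K4me1 counts (SD, n = 3). Those 5 to 20 kb from a neighbour held 30.3% ± 0.0820 and 17.2% ± 0.313, and those 20 to 100 kb away 11.1% ± 0.0297 and 4.93% ± 0.216. The libraries of both marks did not overlap in these bins (exact permutation p = 0.1, the smallest possible). Of tested regions 5 to 20 kb from a neighbour 71.5% were H3K4me1-dominant, against 87% within 1 kb, and the median log2 ratio was -4.65 and -4.83. The difference by spacing was also present within one range of widths. Of tested regions of 2000 bp or more, 40.6% were H3K4me3-dominant where the nearest region lay under 5 kb away and 76.4% where it lay farther.

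**Figure D2:**
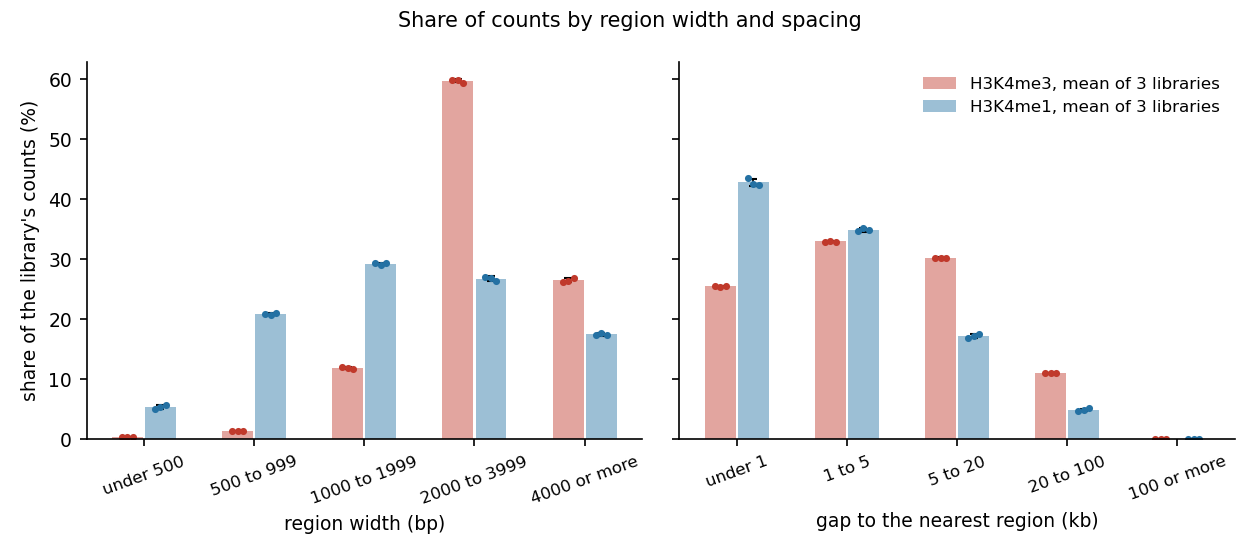
Share of each library's counts (y axis, percent) in regions grouped by width (left, bp) and by gap to the nearest region (right, kb), for H3K4me3 (red) and H3K4me1 (blue). Bars are means of 3 libraries, whiskers SD and points single libraries; H3K4me3 peaks from 2000 to under 4000 bp with a mean of 59.7%, and H3K4me1 is highest at gaps under 1 kb with 42.8%.

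The classes sat in the genome in different patterns. An H3K4me1-dominant region lay a median of 2.67 kb from the next of its kind, and an H3K4me3-dominant region 43.7 kb. An H3K4me3-dominant region had its nearest H3K4me1-dominant region at a median of 14.6 kb, and 78.1% had one within 50 kb. H3K4me1-dominant regions are the more numerous, and a larger number alone lies closer together. When regions of one class within 12.5 kb were joined into chains, 80.1% of H3K4me3-dominant regions stayed alone, against 23.6% of H3K4me1-dominant ones. Chains of 10 or more regions numbered 709 for H3K4me1 and 1 for H3K4me3.

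The longest H3K4me1 chains lay over genes, by hg19 gene positions written from general knowledge. The largest had 49 regions at chr11:12700307-12885148, inside TEAD1, a transcription factor of the Hippo pathway that is active in heart muscle. The next had 48 regions over GLI2 (chr2:121498240-121721643), a Hedgehog pathway factor. Chains of 40 regions lay over PLXNA2 (chr1:208256221-208426898), a semaphorin receptor, and RBPMS (chr8:30246751-30438811), an RNA-binding protein of muscle splicing. Chains of 39 regions numbered 4. They lay over ANKRD11 (chr16:89343351-89513906), a chromatin cofactor, over SHB (chr9:37907884-38071239), a signalling adaptor, inside FHOD3 (chr18:33881804-34051700), a formin that assembles heart sarcomeres, and at chr18:46240826-46420284. These genes were named after the chains were seen. The regions at their own starts had higher shares of H3K4me3, with log2 ratios of 3.72 for TEAD1, 1.15 for GLI2, 2.13 for PLXNA2, 3.62 for RBPMS, 3.98 for ANKRD11, 1.62 for SHB and 2.21 for FHOD3. At TEAD1 the start region held 106, 120.1 and 122 CPM of H3K4me3 in replicates 1 to 3 and 9.92, 4.79 and 11.8 CPM of H3K4me1. The start of TEAD1 carried the promoter mark in every library, while the regions of the chain were chosen for their higher share of H3K4me1. The largest H3K4me3 chain had 12 regions at chr17:8020840-8130972, and the next had 9 at chr6:26155431-26235562, in a cluster of histone genes.

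Marks that took no part in making the classes also differed between them. H3K27ac reached 9.27, 7.80 and 8.28 CPM per kb of H3K4me3-dominant sequence in replicates 1 to 3. In H3K4me1-dominant sequence it reached 6.93, 7.28 and 7.04 CPM per kb. It was higher on the H3K4me3 side in 3 of 3 libraries, although 3 libraries cannot give a two-sided p under 0.25 within libraries. Both classes were far above untested regions, at 1.57 ± 0.334 CPM per kb. By number of counts more H3K27ac lay in H3K4me1-dominant regions, 56.3% ± 1.43 against 29.98% ± 2.64, and these cover 79.5 Mb against 35.5 Mb.

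Among H3K4me1-dominant regions, the share of H3K27ac was lowest where the ratio was most extreme. The decile of tested regions with the lowest ratios held 4.83 ± 0.328 CPM of H3K27ac per kb (SD, n = 3). The value was higher in each following decile up to 8.22 ± 0.213 in the seventh, where ratios lay between -4.24 and -3.50, and all 3 libraries of that decile exceeded all 3 of the lowest. The decile with the highest ratios held 9.15 ± 0.813.

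H3K9me3 was lowest in H3K4me3-dominant regions, at 0.891 ± 0.188 CPM per kb, against 5.36 ± 0.342 in H3K4me1-dominant and 9.80 ± 0.501 in untested regions. A few regions carry much of this mark: the 100 regions with the highest mean CPM over the 4 marks held 30.7% ± 3.04 of H3K9me3 counts and 0.748% ± 0.106 of H3K4me3 counts. Without them, a check added after seeing the data, H3K9me3 was 1.28 ± 0.240 in H3K4me3-dominant, 5.30 ± 0.279 in balanced and 2.38 ± 0.181 CPM per kb in H3K4me1-dominant regions. The H3K4me3-dominant class remained the lowest, and balanced regions then exceeded H3K4me1-dominant ones.

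**Figure D3:**
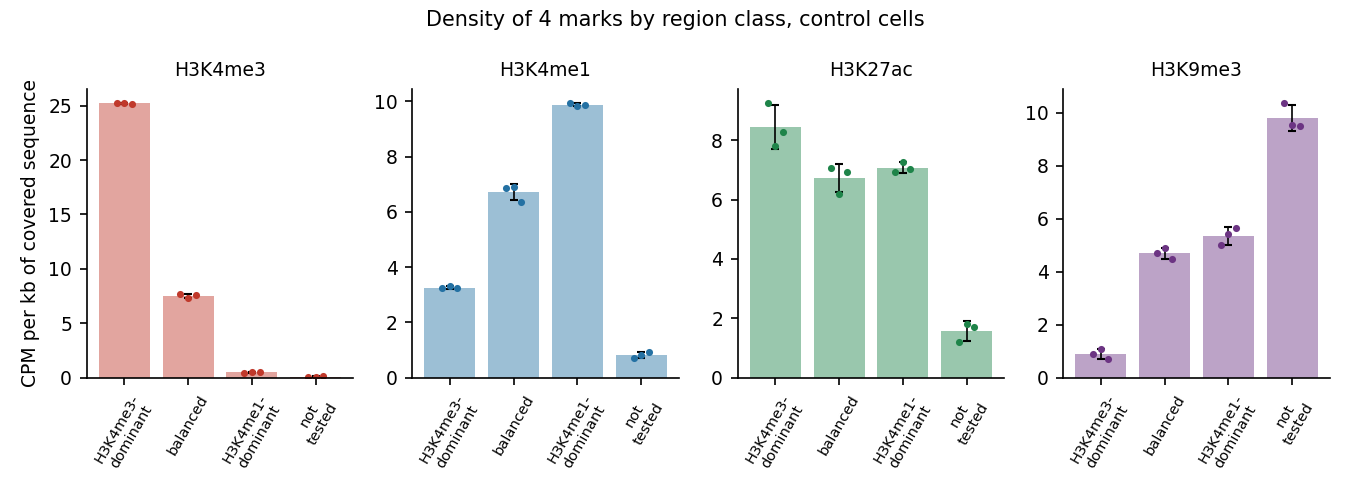
Level of each mark (y axis, CPM per kb of covered sequence, one panel and scale per mark) in the 4 region classes (x axis), control cells. Bars are means of 3 libraries, whiskers SD and points single libraries; the first and second panels show the marks that defined the classes, and H3K27ac is 8.45 and 7.08 CPM per kb in the 2 dominant classes.

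Regions near an H3K4me3-dominant region were richer in H3K4me1, and also in H3K27ac and H3K4me3. The H3K4me1 and H3K4me3 levels were read in the knockdown libraries, which did not make the classes. The regions themselves were still chosen by the control classes, so these values are not independent of that choice. Other regions under 1 kb from an H3K4me3-dominant one held 8.76 ± 0.243 CPM of H3K4me1 per kb (SD, n = 3), those at 5 to 20 kb 7.09 ± 0.116, and those at 100 kb or more 4.99 ± 0.0857. H3K27ac in control cells was 6.36 ± 0.347 CPM per kb in the nearest and 3.72 ± 0.408 in the farthest group. H3K4me3 in knockdown cells was 2.22 ± 0.0895 CPM per kb in the nearest and 0.451 ± 0.0181 in the farthest group. For each of these marks the 3 libraries of the nearest group lay above the 3 of the farthest. Regions with too few counts for a test made up 19.8% of the nearest and 59.6% of the farthest group.

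The balance between the marks recurred in cells with ZNF436 knocked down, whose libraries are separate. There 13825 regions (16.1%) had more H3K4me3 and 70036 (81.3%) more H3K4me1 of 86130 tested, 97.4% in all, and 15.3% were H3K4me3-dominant and 81% H3K4me1-dominant. Of control H3K4me3-dominant regions 97%, and of H3K4me1-dominant ones 92.6%, were in the same class. From the knockdown side the shares were 96.6% and 88.7%. Only 2 regions went from H3K4me3-dominant in control to H3K4me1-dominant in knockdown cells, and 1 went the other way. Across the 78727 regions tested in both, Pearson's r of the log2 ratios was 0.920; the points share region width and base composition and are not independent.

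Chromosome 19 leaned most to the promoter mark. It held 5.99% ± 0.109 of H3K4me3 counts and 3.29% ± 0.112 of H3K4me1 counts (SD, n = 3), and 36.6% of its tested regions were H3K4me3-dominant. Chromosome 18 was the lowest autosome by the ratio of those shares, with 1.83% ± 0.0489 and 2.35% ± 0.125, and 10.5% H3K4me3-dominant. On each of these chromosomes the libraries of the marks did not overlap. The same held for every other chromosome except 4 and 7, so the lack of overlap does not set 19 and 18 apart. Chromosome 19 is known as the most gene-dense human chromosome and chromosome 18 as one of the gene-poor ones.

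The 5 regions with the most H3K4me3 lay at TNRC18, KMT2E, KDM6B, SIN3A and BRD2. The region with the highest level, chr7:5456233-5471571 at TNRC18, held 459, 474 and 444 CPM in replicates 1 to 3 and 47.2, 53.2 and 45.5 CPM of H3K4me1, a log2 ratio of 3.24 (SE 0.13, adjusted p = 2.77e-22, edgeR). Next came chr7:104650392-104658797 at KMT2E, an MLL family protein that reads H3K4me3, with a mean of 381 ± 16.4 CPM (SD, n = 3). The third was chr17:7736516-7748762 at KDM6B, a demethylase of H3K27me3, with 381 ± 3.85 CPM. The others were chr15:75742166-75749147 at SIN3A, the scaffold of a histone deacetylase complex, with 379.6 ± 24.9 CPM, and chr6:32934519-32943034 at BRD2, a reader of acetylated histones, with 373 ± 36.9 CPM. Their log2 ratios ran from 2.27 at KDM6B to 4.75 at SIN3A. All 5 regions are wide, from 6982 to 15339 bp, and a wide region gathers more counts.

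Of the 5 regions with the most H3K4me1, 4 were also at the top of other marks. They lay at chr1:121478309-121485434, chr19:27731783-27740768, chr2:133004452-133039289 and chr18:105199-112731. These are the 4 highest regions of H3K27ac too, and rank 1, 2, 14 and 3 in H3K9me3. The first held 1154, 2448 and 2773 CPM of H3K4me1, 125, 272 and 496 CPM of H3K4me3 and a mean of 44252 CPM of H3K9me3, so its level differed over 2-fold between libraries of one mark. Their log2 ratios between -2.84 and -2.47 changed sign under TMM and RLE. The calls of the regions on chromosomes 1, 18 and 19 were lost without H3K4me3 replicate 2 (adjusted p = 0.0533, 0.0567 and 0.0672, edgeR), and that on chromosome 19 also without H3K4me1 replicate 2 or 3 (0.0544 and 0.0571). The remaining region of the 5, chr14:100028329-100048573 inside CCDC85C, differed from these. It held 534, 457 and 473 CPM of H3K4me1 and 11.2, 16.7 and 13.4 CPM of H3K4me3, a log2 ratio of -5.14 (SE 0.16, adjusted p = 2.98e-25, edgeR), with 298 ± 29.1 CPM of H3K27ac and 12.5 ± 5.41 CPM of H3K9me3.

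The most extreme ratios came from regions with no counts at all of one mark. The region chr8:145447495-145448381 had 639 H3K4me3 counts over 3 libraries and 0 of H3K4me1, at least 73.3-fold higher when 0 is set to 3 counts over the 3 libraries. The other 4 of this kind, at chr15:82824521-82825375, chr5:175664873-175666040, chr10:51370652-51371460 and chr7:72475780-72476793, were at least 56.5-, 49.4-, 43.7- and 34.1-fold higher. In the opposite direction, chr11:97071864-97074286 had 556 H3K4me1 counts and 0 of H3K4me3, at least 539-fold higher in H3K4me1. Then came chr7:127623067-127625469 inside SND1, chrX:129852347-129855056, chr2:207954932-207957445 inside KLF7, a Krüppel-like factor, and chr4:114566650-114568156 inside CAMK2D, the main calcium/calmodulin kinase of heart muscle. These were at least 479.7-, 414-, 373- and 376-fold higher in H3K4me1. The start regions of SND1, KLF7 and CAMK2D had more H3K4me3, with log2 ratios of 2.89, 3.04 and 3.58, so both kinds of region occurred within one gene. The bounds cover counting error only, and 3 counts are a smaller CPM in the deeper H3K4me3 libraries.

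Heart gene loci were then read at their starts. A gene's start region is the listed region nearest its start, where that lies within 2 kb. It need not cover the start. Among genes named below, the start regions of MYL2, DCN, DES and GJA5 lay 0.139, 0.226, 0.51 and 1.3 kb away from it. Its flank is all regions more than 2 kb and up to 50 kb from the start. Any further region within 2 kb belongs to neither. Start positions in hg19 were written from general knowledge, because no hg19 annotation was used here, and a region that spans neighbouring genes cannot be split. The lists were chosen with earlier results of these data known.

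The spread between replicates at heart genes had a pattern that differed between the marks. Summed over the 20 start regions of sarcomere genes, H3K4me3 was 891, 633 and 1309.6 CPM in replicates 1 to 3, a 2.07-fold range. H3K27ac was 1789.7, 1212 and 2644 CPM, a 2.18-fold range, with replicate 2 lowest and replicate 3 highest in both marks. H3K4me1 was 1096, 1043 and 1084 CPM, a 1.05-fold range. The same libraries were lowest and highest for H3K4me3 at 14 of the 19 tested sarcomere genes, 8 of 14 calcium and channel genes and 8 of 16 transcription factor genes, but at 3 of 12 housekeeping genes. The sarcomere sums are made of these same values. The share of all tested regions with this order was not counted, so the order cannot be called particular to heart genes. At housekeeping genes summed H3K4me3 ranged 1.04-fold between libraries. The ratios of sarcomere genes rest on these unequal H3K4me3 libraries. Those of MYH6, TNNT2, TNNI1 and TNNC1 are given below with and without H3K4me3 replicate 3. MYL3, not called on all libraries, was called without H3K4me3 replicate 3, at -1.59 (adjusted p = 7.70e-06, edgeR). In knockdown cells the sarcomere sum of H3K4me3 was 1303, 1123 and 1160 CPM.

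Markers of other cells did not all follow. Summed H3K4me3 over the 6 pluripotency starts was 246, 248 and 252 CPM, and over the 8 epicardial, fibroblast and smooth muscle starts 329, 347 and 302. Over the 5 endoderm starts it was 271, 149 and 197 CPM, highest in replicate 1, and H3K27ac there was 174, 59.1 and 43.3. The 5 neural starts summed to between 28.7 and 37.9 CPM of H3K4me3 and the 2 endothelial ones to between 69.5 and 82.9. POU5F1 and NANOG, the defining pluripotency factors, and the skeletal muscle genes MYOD1, MYF5 and ACTA1 had no start region among those analysed here. In bulk libraries, fewer heart muscle cells and less of a mark per cell cannot be told apart, and the part of other cell types in these differences was not tested.

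**Figure D4:**
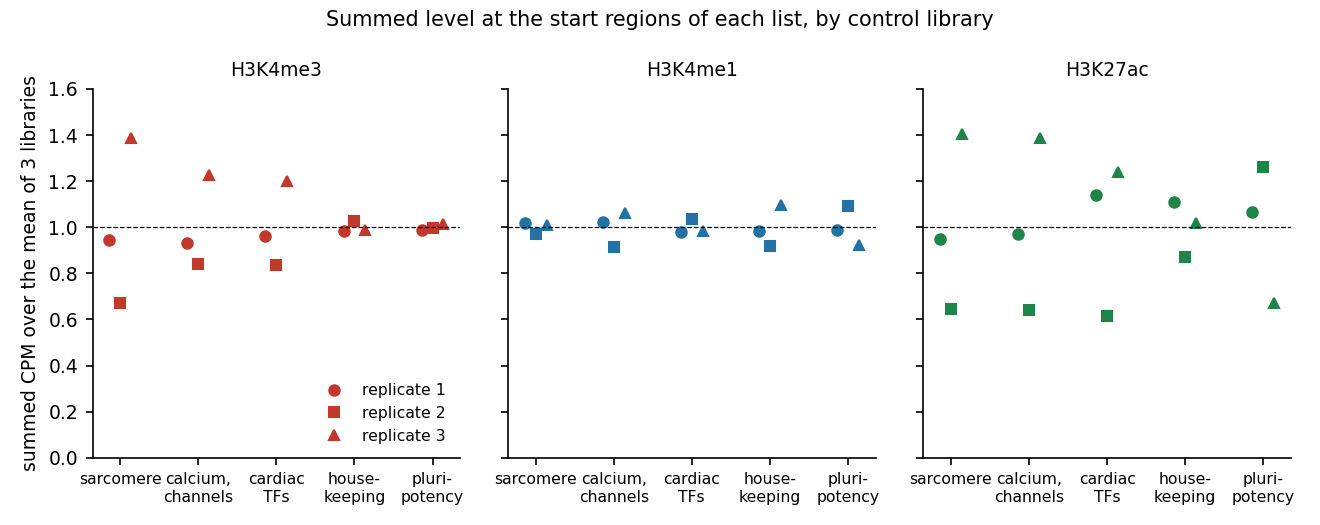
Summed CPM of each gene list's start regions in each control library, divided by the mean of the 3 libraries (y axis), for 5 lists (x axis) and 3 marks (panels), with one symbol per replicate. H3K4me3 and H3K27ac at sarcomere starts range 2.07-fold and 2.18-fold between replicates, and H3K4me1 there ranges 1.05-fold.

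Of 55 heart genes in 4 lists, 51 had a start region and 50 had one that could be tested. H3K4me3 was higher at 31 of the 50 and H3K4me1 at 7, while 12 were not called, beside 16.3% and 80.2% of all tested regions. The median log2 ratio was 1.10, where that of all tested regions was -4.74. With TMM scaling H3K4me3 was higher at 48 and H3K4me1 at none, and without H3K4me3 replicate 3 H3K4me1 was higher at 12. Of 39 genes of other lineages 26 had a start region, a smaller part than of heart genes, and 24 could be tested. Among these the counts were 13, 4 and 7, with a median of 1.23, and the genes without a start region enter neither median. In size and acetylation the medians lay farther apart, with no test made: the median start region was 5474 bp wide for heart genes and 2648 bp for the others, and its median H3K27ac was 11.2 against 2.64 CPM per kb.

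The 12 housekeeping genes give the scale of a plain active promoter. H3K4me3 was higher at 11 of them and H3K4me1 at none, beside 16.3% and 80.2% of all tested regions. The median log2 ratio was 3.63, at percentile 95.2 of tested regions. TBP had 176, 194 and 183 CPM of H3K4me3 in replicates 1 to 3 and 13.4, 10.7 and 11 CPM of H3K4me1 (chr6:170860699-170864970; log2 ratio 3.97, SE 0.18, adjusted p = 2.02e-21, edgeR). PPIA, RPLP0 and EEF1A1 had ratios of 4.19, 4.13 and 3.28, and ACTB and GAPDH 1.53 and 1.97. All 6 of these were called. The exception was the glycolytic gene PGK1 on the X chromosome, with 64.7, 63.9 and 89.97 CPM of H3K4me3 and 58.7, 54.3 and 94.9 CPM of H3K4me1, whose ranges overlap (log2 ratio 0.07, adjusted p = 0.694, edgeR; 0.37 and called without H3K4me1 replicate 3, adjusted p = 0.0276).

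Start regions of sarcomere genes were the most mixed of the heart lists. Of 19 tested, 5 had more H3K4me3, 5 more H3K4me1 and 9 were not called, beside 16.3% and 80.2% of all tested regions. The median log2 ratio was 0.16, at percentile 82.3. Without H3K4me3 replicate 3 the counts were 3 and 9, and 3 and 4 without H3K4me1 replicate 2 or without H3K4me3 replicate 1. With TMM they were 18 and 0, and in the knockdown libraries 13 and 6. Their median width was 6845 bp and their median H3K27ac 13.4 CPM per kb, against 11.8 at housekeeping genes. The low ratios came with a median H3K27ac no lower than at the housekeeping starts. Per kb, the median H3K4me3 was 6.46 CPM against 33.7 at housekeeping starts, and the median H3K4me1 6.71 against 3.07.

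MYH7, the beta myosin heavy chain, had 21.5, 11.7 and 32.8 CPM of H3K4me3 and 104, 75.1 and 88.6 CPM of H3K4me1 in replicates 1 to 3 (chr14:23902285-23909715), so every H3K4me1 library lay above every H3K4me3 library. The log2 ratio was -2.03 (SE 0.26, adjusted p = 5.54e-07, edgeR) on library totals and 1.54 with TMM, which reverses the direction. MYH6, its neighbour and the alpha heavy chain, had 25.8, 11.7 and 52.7 CPM of H3K4me3 and 38.2, 22.8 and 53.6 CPM of H3K4me1, with groups that overlap (log2 ratio -0.34, adjusted p = 0.610, edgeR). TNNT2, cardiac troponin T, had 66.7, 31.1 and 116 CPM of H3K4me3 and 72.3, 93.5 and 61.6 CPM of H3K4me1. TNNI1, slow troponin I, had 56.1, 32 and 96.3 CPM of H3K4me3 and 65.1, 74.4 and 75.1 CPM of H3K4me1. Both sets overlap, with log2 ratios of -0.09 and -0.22 (adjusted p = 0.867 and 0.515, edgeR). Without H3K4me3 replicate 3, MYH6, TNNT2 and TNNI1 had more H3K4me1, at -1.03, -0.63 and -0.70 (adjusted p = 0.00356, 0.0155 and 0.00497, edgeR), and with TMM all 3 lay on the H3K4me3 side.

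TNNI3, cardiac troponin I, had 25.3, 13.6 and 29.7 CPM of H3K4me3 and 12.3, 7.07 and 12.8 CPM of H3K4me1, with H3K4me3 above in every library (log2 ratio 1.09, adjusted p = 0.00413, edgeR). TNNC1, troponin C, had 103, 106 and 124 CPM of H3K4me3 and 98.4, 81.2 and 86.8 CPM of H3K4me1, a log2 ratio of 0.32 (adjusted p = 0.0411, edgeR). Its call was lost without H3K4me1 replicate 2 (0.26) and without H3K4me3 replicate 1, 2 or 3 (0.37, 0.35 and 0.24). Other sarcomere genes are named after their values were seen. MYL7 had 14.5, 6.82 and 25 CPM of H3K4me3 and 64.1, 64.8 and 70.8 CPM of H3K4me1, without overlap (log2 ratio -2.11, SE 0.33, adjusted p = 1.55e-05, edgeR; 1.45 with TMM). LDB3, the Z-disc protein cypher, had 69.4, 27.1 and 115 CPM of H3K4me3 and 229.97, 232 and 258 CPM of H3K4me1 over a region of 17995 bp (log2 ratio -1.77, adjusted p = 0.0346, edgeR; 1.79 with TMM). The LDB3 call was lost without any 1 of the H3K4me1 libraries (-1.80, -1.79 and -1.72) or without H3K4me3 replicate 1 (-1.76). TPM1, tropomyosin, lay on the promoter side, with 202, 219 and 201 CPM of H3K4me3 and 105, 93.5 and 87.3 CPM of H3K4me1 (log2 ratio 1.12, adjusted p = 2.28e-09, edgeR).

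Markers of the ventricular fate were uneven at their starts. HEY2, described below, had more H3K4me3 (log2 ratio 3.41, adjusted p = 3.05e-19, edgeR). MYL2, the ventricular light chain, had a start region of 276 bp that held 0.0836, 0.215 and 0.335 CPM of H3K4me3 and 0.863, 2.28 and 3.5 CPM of H3K4me1, too few for a test. IRX4, a ventricular transcription factor, had 92.5, 42.1 and 166 CPM of H3K4me3 and 45.1, 47.9 and 52.8 CPM of H3K4me1, with groups that overlap (log2 ratio 1.04, adjusted p = 0.119, edgeR; 1.41, adjusted p = 1.95e-07, without H3K4me3 replicate 2). The start region of the atrial gene MYL7 is 8413 bp wide, and per kb it held a mean of 1.84 CPM of H3K4me3 against 0.766 at MYL2, and 7.91 CPM of H3K4me1 against 8.03. MYL7 against MYL2 is a single pair of genes and does not describe atrial or ventricular genes as groups. Other listed genes linked to atrial cells went both ways. NR2F1 and NR2F2 had more H3K4me3, with log2 ratios of 2.70 and 2.57 (adjusted p = 1.83e-11 and 6.25e-15, edgeR). GJA5 had more H3K4me1 (-2.37, and 1.19 with TMM), and MYL4 was not called (0.67). MYL2, IRX4, HEY2, NR2F1, NR2F2, GJA5 and MYL4 are named after their values were seen. NPPB, a natriuretic peptide gene, had 12.4, 5.74 and 11.3 CPM of H3K4me3 and 8.41, 8.21 and 12.3 CPM of H3K4me1, which also overlap (log2 ratio 0.03, adjusted p = 0.954, edgeR). NPPA had no start region among those analysed here.

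Genes of calcium handling and ion channels lay nearer to the housekeeping pattern. H3K4me3 was higher at 11 of 14 tested starts and H3K4me1 at 2, beside 16.3% and 80.2% of all tested regions. The median log2 ratio was 2.06. Leaving out 1 library gave 8 to 12 with more H3K4me3, with 8 without H3K4me1 replicate 2, and 2 with more H3K4me1 each time. RYR2, the calcium release channel of the sarcoplasmic reticulum, had 69.2, 69.9 and 97.3 CPM of H3K4me3 and 10.1, 9.13 and 13.3 CPM of H3K4me1 (chr1:237204664-237208072; log2 ratio 2.86, SE 0.22, adjusted p = 1.15e-14, edgeR). ATP2A2, the calcium pump SERCA2, had 133, 130.5 and 143 CPM of H3K4me3 and 20.9, 26.5 and 20.02 CPM of H3K4me1 (log2 ratio 2.59). Neither gene's groups overlapped. PLN, the inhibitor of that pump, had a ratio of 1.95, SLC8A1, the sodium-calcium exchanger, 2.27, and CACNA1C, the L-type calcium channel, 2.16, and each was called. The PLN call was lost without H3K4me1 replicate 2 (adjusted p = 0.0617, edgeR) and the SLC8A1 call without H3K4me1 replicate 2 or 3 (adjusted p = 0.0940 and 0.0664, edgeR). KCNH2, named after its values were seen, went the other way, with 71.2, 57.1 and 82.5 CPM of H3K4me3 and 190.1, 158 and 184 CPM of H3K4me1 over 12645 bp (log2 ratio -1.34, SE 0.15, adjusted p = 3.93e-10, edgeR; 2.25 with TMM).

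Cardiac transcription factor genes had wide start regions with much H3K4me3 in total, but less of it per kb than housekeeping genes. H3K4me3 was higher at 15 of 16 tested starts and H3K4me1 at none, beside 16.3% and 80.2% of all tested regions. The median log2 ratio was 2.34. Leaving out 1 library gave 12 to 16 with more H3K4me3, with 12 without H3K4me1 replicate 1 or 2, and none with more H3K4me1. The median start region was 8162 bp wide and held 156 CPM of H3K4me3 and 39.7 CPM of H3K4me1, against 137 and 11.9 at housekeeping genes. Per kb, the median H3K4me3 was 18.6 CPM against 33.7 at housekeeping genes, and the median H3K4me1 3.80 against 3.07. HAND2, a factor of the developing ventricles, had 270.5, 295 and 395 CPM of H3K4me3 and 79.2, 89.4 and 70.6 CPM of H3K4me1 over 18317 bp (chr4:174436557-174454873; log2 ratio 2.0, SE 0.15, adjusted p = 1.99e-15, edgeR), and HAND1 had a ratio of 1.56. ISL1, a factor of cardiac progenitors, had 57.7, 129.8 and 83.9 CPM of H3K4me3 and 17, 9.81 and 13.3 CPM of H3K4me1 (log2 ratio 2.75). MEF2A and HEY2 had the pattern of housekeeping genes, with ratios of 3.5 and 3.41, and HEY2, named after its values were seen, held 167, 136 and 185 CPM of H3K4me3 and 16.2, 17.1 and 12.5 CPM of H3K4me1.

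NKX2-5, the early cardiac homeobox factor, had the widest start region of the lists, 22258 bp (chr5:172654365-172676622). It held 195, 82.7 and 397 CPM of H3K4me3 and 59.5, 54.3 and 66.3 CPM of H3K4me1, so the groups did not overlap but H3K4me3 spread more than 4-fold between libraries (log2 ratio 1.90, SE 0.65, adjusted p = 0.0413, edgeR). The call was lost without any 1 of the H3K4me1 libraries (adjusted p = 0.116, 0.122 and 0.107, edgeR) or without H3K4me3 replicate 1 (0.0569). MEF2C had no start region among those analysed here, and neither had CASQ2 or MYPN.

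**Figure D5:**
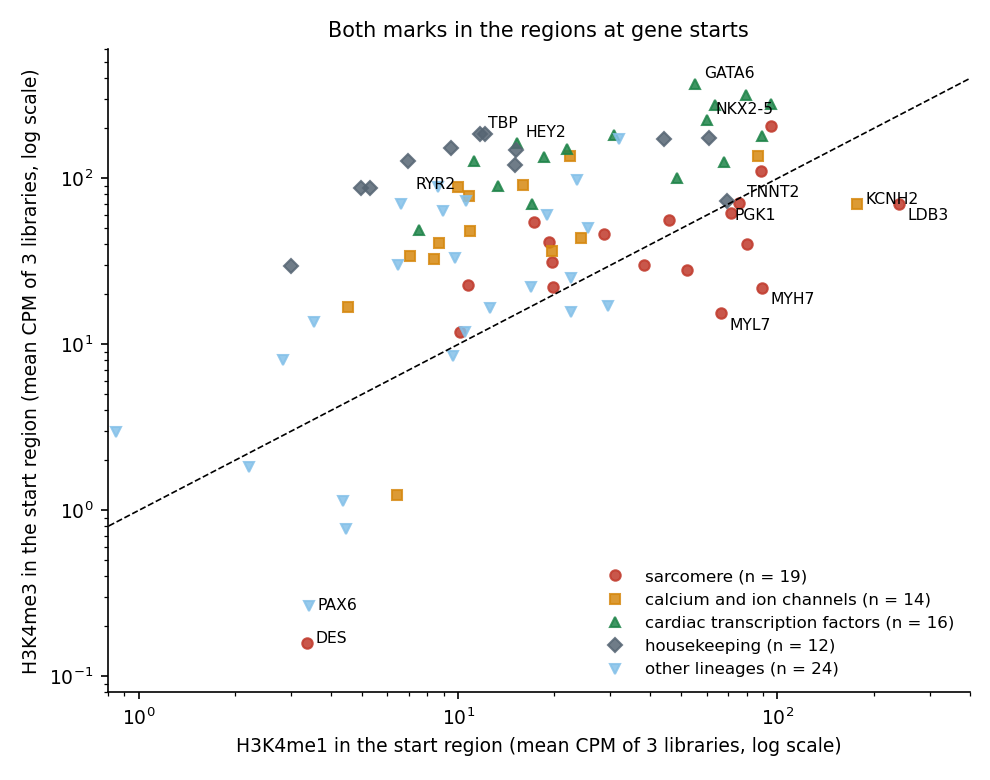
H3K4me3 (y axis) against H3K4me1 (x axis) in tested start regions, mean CPM of 3 control libraries, log axes, one point per gene and one symbol per list, with the dashed line at equal shares; the single tested natriuretic gene is not drawn. Housekeeping genes lie high above the line except PGK1, transcription factors lie above it, and sarcomere genes straddle it.

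Of the 39 marker genes of other lineages 13 had no start region among those analysed here, with 5 of the 7 endothelial and blood genes among them. Where there was a start region it held less H3K27ac at the median than at heart genes. Of 6 tested pluripotency starts, H3K4me3 was higher at 4 and H3K4me1 at 1, with a median H3K27ac of 2.27 CPM per kb. For the counts in this paragraph, the shares of all tested regions are 16.3% and 80.2%. SOX2 had 19.8, 28.5 and 27.3 CPM of H3K4me3 and 23.1, 25.1 and 19.5 CPM of H3K4me1, which overlap (log2 ratio 0.16, adjusted p = 0.558, edgeR). SALL4 and DNMT3B, named after their values were seen, had log2 ratios of 3.37 and 3.40, as high as housekeeping genes, with 4.34 and 2.69 CPM of H3K27ac per kb. KDR, the VEGF receptor of endothelium and of early heart progenitors, had a ratio of 2.82, FOXA2, an endoderm factor, 1.66, and the neural factor PAX6 -3.55 (0.011 with TMM), with 0.0836, 0.718 and 0 CPM of H3K4me3. Of 8 tested epicardial, fibroblast and smooth muscle starts, H3K4me3 was higher at 4, among them the collagen gene COL1A1 (2.78) and the epicardial factor TBX18 (1.75). That count was 3 without any 1 of the H3K4me1 libraries or without H3K4me3 replicate 2 or 3. H3K4me1 was higher at 1 start, which became 0 without H3K4me1 replicate 3 or H3K4me3 replicate 3. WT1, TCF21 and DCN were not called, at -0.17, 0.40 and -0.29; with TMM every one of them lay on the H3K4me3 side.

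CpG content was weakly related to the promoter mark, and its rank correlation with the total H3K4me1 of a start region was near 0. Totals also depend on region width, and no correlation was computed for levels per kb. Of the 75 listed genes with a RefSeq window, 59 had a tested start region. Across these, Spearman's rho of the CpG count was 0.345 with the log2 ratio, 0.422 with H3K4me3 CPM and -0.00158 with H3K4me1 CPM, a description over genes that share the same 6 libraries and were not drawn at random. The 16 with 10 CpGs or fewer had a median log2 ratio of 0.77 and 5 were H3K4me3-dominant. The 43 with more had a median of 2.12 and 31 were H3K4me3-dominant, beside 15.8% of all tested regions. The 14 listed genes with a window but no start region had a median of 6 CpGs. The 5 sequences above were picked to cover the range of ratios. Among them HEY2 has more CpGs and a lower ratio than TBP, and KCNH2 has many CpGs and more H3K4me1.

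The flanks of heart genes were mostly H3K4me1-dominant, like other regions. Counting each region once, 591 regions lay in the flanks of the 55 starts. Of the 430 tested, 345 were H3K4me1-dominant (80.2%), close to the 80% of all tested regions. For genes of other lineages it was 112 of 148 (75.7%). Heart genes had more of these regions, a median of 6 per gene against 3, and a median of 95.4 CPM of H3K4me1 in the flank against 32.5. At housekeeping genes the median flank held 95 CPM, as much as at heart genes, with 57 of 84 tested regions H3K4me1-dominant. TNNT2 had 13 H3K4me1-dominant regions in its flank, TNNI1, which shares part of that flank, 16, and TPM1 18 of 18 tested. The flank of KCNH2 held 499 ± 26.6 CPM of H3K4me1 (SD, n = 3) and that of RYR2 36.5 ± 13.8. DES, the muscle intermediate filament gene, is named after its values were seen. Its start region, of 696 bp and 0.51 kb from the start, held 0.334, 0.144 and 0 CPM of H3K4me3 and 4.53, 1.83 and 3.75 CPM of H3K4me1. These values do not describe the DES start itself. In the flank of DES, 14 of 16 tested regions were H3K4me1-dominant.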

How the data were processed

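Each file deposited by the authors holds unnormalized counts for the same regions. Tools listed in the submitters' processing notes are deepTools 3.5.4, bedtools 2.30.0 and Bowtie2 2.4.5, with hg19 as the build and no roles. The sources used here do not state how regions were made or whether both reads of a pair were counted. Of counts above 0, 62.6%, 62.3% and 63.9% were even in H3K4me3 replicates 1 to 3 and 51.9%, 52.2% and 53.1% in H3K4me1 replicates 1 to 3. The marks therefore differ in this respect. Counting of both mates as a source of even counts was not tested, and intervals on counts may be too narrow.

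The 6 control libraries of both marks were compared with edgeR 4.0.16 (R 4.3.3): filterByExpr, library totals without further scaling, and the robust quasi-likelihood test with the mark as the only term, Benjamini-Hochberg adjusted over all tested regions. The knockdown libraries were fitted alone in the same way. Library pairs within each group differed by more than sampling noise (chi-square per degree of freedom 3.16 to 10.3). Shares by width and spacing were compared with exact permutation tests. The code was tested on simulated data. Positions count from 1.

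Gene lists, members and start positions were chosen with earlier results of these data known. Named regions are the 5 highest in each mark and the 5 largest ratios in each direction with 30 counts or more in every library of the higher mark, called and not overlapping, merged within 10 kb. Named genes are the first 6 of lists of 9 or more genes and the first 3 of others, plus genes said to be named later. Of 122 genes with positions, all lay on the same chromosome in the GRCh38.p14 table of RefSeq. The spacing to a neighbour within 10 Mb matched that table within 50 kb for 71 of 78 genes, and within 5 kb for 51. Both limits are wider than the 2 kb used for a start region, so the check does not settle positions at that scale. Genes without such a neighbour were not checked by spacing. All 89 genes with a RefSeq promoter window matched in strand. Alternatives were TMM, RLE, DESeq2 1.42.0, no filter, a filter of 30 counts in 3 libraries, thinned and halved counts, a replicate block, a minimum log2 ratio of 1, other width, spacing, start and flank limits, and leaving out each library.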

Additional observations from a re-analysis of the deposited data

How the results depend on the processing

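Scaling decided how many regions lay on the H3K4me1 side. Their number went from 66999 to 29273 with TMM, 44061 with RLE and 24220 with the strict filter, which tests fewer regions, and in knockdown cells from 70036 to 33953 with TMM. The number on the H3K4me3 side stayed within 1.5 times of 13605 in every alternative run. Heart gene starts with more H3K4me3 went from 31 to 48 (TMM) and 47 (RLE), and those with more H3K4me1 from 7 to 0 in both. Leaving out 1 library gave 23 to 34 and 7 to 12, the last without H3K4me3 replicate 3. Differences by width (41.9 percentage points for 2000 bp or more) and by spacing (19.2 for 5 kb or more) kept their direction with each other width, spacing or distance measure tried, without any 1 library and without the 100 highest regions, a check added after seeing the data. The difference by width did so over tested regions alone too.

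Ratios that changed sign with TMM and RLE were, in that order, 3.21 and 2.60 for MYH6, 1.54 and 0.93 for MYH7, 3.46 and 2.85 for TNNT2, 3.34 and 2.72 for TNNI1, 1.45 and 0.83 for MYL7, and 1.79 and 1.17 for LDB3. They were 2.25 and 1.62 for KCNH2, 2.57 and 1.96 for MYL3, 2.68 and 2.06 for TCAP, 3.42 and 2.78 for WT1, 3.29 and 2.63 for DCN, and 0.011 with TMM alone for PAX6. GJA5 gave 1.19 with TMM. The regions of very high signal gave 0.73 and 0.084 on chromosome 1, 1.03 and 0.38 on chromosome 2, 1.11 and 0.45 on chromosome 18, and 0.93 and 0.28 on chromosome 19.

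The replicate numbers did not pass the criterion for pairing: deviations of libraries with the same number correlated at 0.0950, 0.165 and 0.148, although each library correlated best with its own number. With the replicate block 13424 and 66390 regions were called, and 99% of calls were kept in the same direction. The block gave 33 and 9 heart gene starts, called MYH6 (-0.50, adjusted p = 0.0458, edgeR), MYL3 (-1.20) and IRX4 (0.84), and lost the call of TNNC1 (adjusted p = 0.0662, edgeR). The filter left 69719 regions untested. Without it 56003 of them could be tested, of which 17886 had more H3K4me1 and 15 more H3K4me3. DESeq2 and the thinned counts were run on the same control libraries. Of the named values carried through each setting, 69 of 71 and 67 of 68 kept direction and call.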
